A study of Mus musculus with 8 samples.

Results

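The 10 genes followed here belong to the endoplasmic reticulum (ER) stress response and the integrated stress response (ISR), read in Klotho-deficient skeletal muscle. They were chosen by name as *Atf4*, *Atf5*, *Ddit3*, *Asns*, *Hspa5*, *Xbp1*, *Hsp90b1*, *Calr*, *Pdia4* and *Dnajb9*, and all 10 were found among the 12551 genes counted. RNA was sequenced from the whole tibialis anterior (TA), a fast-twitch muscle of the lower hindlimb, of 4 wild-type (WT) and 4 Klotho-null (KL-/-) mice. All 8 were male and aged 7 weeks, of mixed background and bred from Klotho+/- parents, and the series describes the genotypes as littermates without naming the litters. KL-/- mice carried the null allele homozygously in every tissue, so that loss of Klotho in muscle and loss elsewhere in the body cannot be told apart. The comparison asked whether transcripts of these 2 stress pathways differed in muscles that lack Klotho.

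The ER folds secreted and membrane proteins with the help of resident chaperones. When folding falls behind, the sensors IRE1, PERK and ATF6 start the unfolded protein response, which raises chaperone transcription through cleaved ATF6 and through XBP1, whose mRNA is spliced by IRE1. PERK is also one of the kinases that phosphorylate the translation factor eIF2, as are GCN2, PKR and HRI, and this step, the core of the ISR, slows general translation while favouring translation of ATF4. ATF4 in turn drives genes of amino acid supply and, under lasting stress, *Ddit3*, which encodes CHOP. Gene-level counts report mRNA only, and hold neither the splicing of *Xbp1* nor the translation of *Atf4*.

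Libraries held 20860262 to 26501093 counts in WT and 22061526 to 29273758 in KL-/- muscles, without a detectable difference in depth (two-sided exact permutation test over 70 relabelings, p = 0.371). Levels are given as CPM, which are counts relative to the library size, after scaling by the trimmed mean of M-values (TMM), with factors of 1.02 to 1.05 in WT and 0.950 to 0.980 in KL-/- libraries. The muscle markers *Ckm* and *Acta1* were abundant in both genotypes, with mean levels of *Acta1* of 30773 CPM (WT) and 32075 CPM (KL-/-). *Kl* itself was not analysed here, so the genotype of each library rests on the labels. The paper genotyped its mice by PCR. In KL-/- muscle it found no Klotho protein by immunoblot and no *Kl* mRNA by qRT-PCR. Only KL-/- replicate 3, has a batch date of its own, so values computed without it are those within 1 batch. KL-/- replicate 2 stood apart from its group: between its counts and those of the other KL-/- libraries the chi-square per gene was 60.6 to 84.8, against 18.0 to 27.9 among these, and its summed muscle fibre markers were at 187980 CPM, against 114370 to 153190 CPM in the other 7 libraries. Without it 2 of the 10 genes, *Atf4* and *Pdia4*, passed the edgeR test, as did 2765 of all 12551 genes. With every library kept 0 of the 10 passed, beside 1715 of all genes. With KL-/- replicate 2 kept, 2 of the 10 passed without WT replicate 4 (beside 1309) and 1 without WT replicate 1 (beside 1178). In whole muscle, fewer cells of a type and less RNA per cell cannot be told apart.

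Chaperone promoters are known for the ER stress response element (ERSE), in which CCAAT is followed after 9 bases of any kind by CCACG, bound by NF-Y together with ATF6 or XBP1. Searched on both strands in the 250 bases before each start in the RefSeq promoter table (build GRCm38.p6), it was found for 3 of the 10 genes, *Hspa5*, *Hsp90b1* and *Calr*, against 37 of 32851 promoters (0.113%) and 15 of the 9564 counted genes with a promoter matched by symbol (0.157%). The promoters of those 3 chaperones are shown because they carry the ERSE. That of *Asns* is shown because it alone among the 10 held the composite element of ATF4 and its partners, TGATGNAAN. Capitals mark the element. Where the match lay on the other strand they show its reverse complement.
Hspa5, chr2:34771840-34772089, plus strand: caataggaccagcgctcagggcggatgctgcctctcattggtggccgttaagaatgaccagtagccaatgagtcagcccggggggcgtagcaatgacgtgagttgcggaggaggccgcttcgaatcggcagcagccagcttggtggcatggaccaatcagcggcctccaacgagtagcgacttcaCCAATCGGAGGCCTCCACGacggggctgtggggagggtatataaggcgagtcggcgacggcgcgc
Hsp90b1, chr10:86705445-86705694, minus strand: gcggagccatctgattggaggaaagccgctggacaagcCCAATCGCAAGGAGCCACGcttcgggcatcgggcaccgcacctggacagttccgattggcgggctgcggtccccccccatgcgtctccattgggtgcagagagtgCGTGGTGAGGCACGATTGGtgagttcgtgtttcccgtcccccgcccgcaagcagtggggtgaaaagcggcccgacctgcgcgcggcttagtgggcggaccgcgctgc
Calr, chr8:84846932-84847181, minus strand: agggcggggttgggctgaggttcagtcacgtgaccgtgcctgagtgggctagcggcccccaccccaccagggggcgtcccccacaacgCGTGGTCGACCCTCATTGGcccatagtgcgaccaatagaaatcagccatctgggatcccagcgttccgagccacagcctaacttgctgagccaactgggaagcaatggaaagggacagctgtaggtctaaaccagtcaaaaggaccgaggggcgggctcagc
Asns, chr6:7693210-7693459, minus strand: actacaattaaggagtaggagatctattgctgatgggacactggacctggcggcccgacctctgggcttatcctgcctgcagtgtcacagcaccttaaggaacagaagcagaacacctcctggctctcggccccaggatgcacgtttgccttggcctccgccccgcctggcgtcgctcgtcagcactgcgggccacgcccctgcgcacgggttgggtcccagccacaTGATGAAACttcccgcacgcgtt

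The match in *Hspa5* lay 65 to 47 bases before the start, just ahead of the letters tatataa. *Hsp90b1* held 2 matches on opposite strands, at 212 to 194 and at 107 to 89 bases before its start, and *Calr* held 1 on the other strand at 162 to 144 bases. In *Asns* the composite element read TGATGAAAC at 23 to 15 bases before the start, and TGATGNAAN occurred in 3.44% of all promoters of this length and in 2.39% of those of counted genes. The XBP1 element, searched only in the form TGACGTGG, was in none of the 10 genes and in 0.563% of all promoters (0.910% of those of counted genes). Forms that differ in a letter, such as the tgacgtga in the *Hspa5* promoter, were not searched. The short CCACG, which is also the end of the ERSE, was in 7 of the 10 genes, in 28.3% of all promoters and in 46.5% of those of counted genes. These matches describe letters in a window and are not sites of binding.

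None of the 10 genes passed a false discovery rate (FDR) of 0.05 in the edgeR quasi-likelihood test of KL-/- against WT, in which 13.7% of all genes tested passed. At an unadjusted p under 0.05 the count was 2 of 10, *Pdia4* and *Dnajb9*, against 31.9% of all genes. DESeq2 and the edgeR likelihood ratio test each called 1 of the 10, *Pdia4*, and limma-voom called 0, where they called 19.6%, 16.9% and 14.1% of all genes. In no gene of the 10 were the 4 KL-/- libraries all above or all below the 4 WT libraries, a separation that 19.7% of all genes showed (10.2% above and 9.47% below). Log2 fold changes were positive for 6 and negative for 4, between -0.45 and 0.21, with a median of 0.037 beside -0.016 for all genes tested. Scaling by library totals instead of TMM moved the median of all genes to -0.13 and that of the 10 to -0.082.

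**Figure D1:**
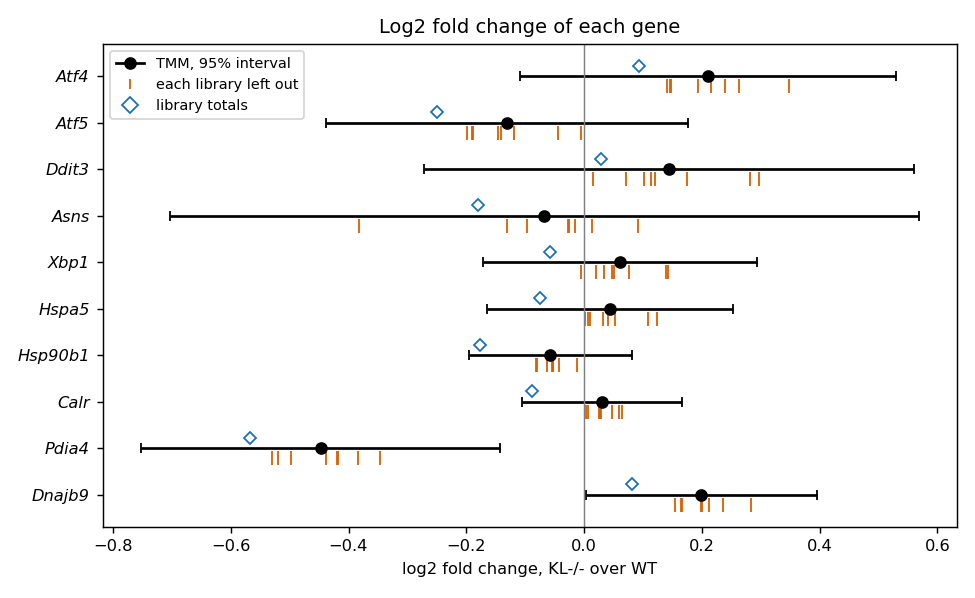
Log2 fold change of KL-/- over WT for the 10 genes, with 95% intervals from the edgeR quasi-likelihood fit (4 libraries per genotype). Black points and bars give the TMM fit, orange ticks the values with each library left out and open diamonds those with scaling by library totals. Points to the right of 0 were higher in KL-/- muscles, and the intervals of *Pdia4* and *Dnajb9* are those that leave out 0.

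*Atf4*, the transcription factor at the centre of the ISR, was at 157, 144, 129 and 165 CPM in WT replicates 1 to 4 and at 174, 124, 195 and 196 CPM in KL-/- replicates 1 to 4. KL-/- replicates 1, 3 and 4 stood above every WT muscle and the other one, replicate 2, below every WT muscle. The difference was 15.7% (95% interval -7.2% to 44.3%), with a log2 fold change of 0.21 (SE 0.14, FDR = 0.333). Without KL-/- replicate 2 the log2 fold change was 0.35 and passed (FDR = 0.0259), and without any other library it stayed between 0.14 and 0.26 and did not pass. Per length *Atf4* and *Calr* were the most abundant of the 10, and *Atf4* was at 86.0 ± 9.19 CPM per kilobase in WT and 99.5 ± 19.6 in KL-/- muscles (SD, n = 4).

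*Atf5*, a related factor whose translation is likewise favoured when eIF2 is phosphorylated, was at 112, 110.3, 99.6 and 134 CPM in WT and 104, 77.6, 116 and 118 CPM in KL-/- replicates 1 to 4. The groups overlapped, and KL-/- replicate 2 was again the lowest of all 8 libraries. The log2 fold change was -0.13 (SE 0.14, FDR = 0.543). The gene at chr7:44812256-44816658 shares 571 bases with *Nup62* on the opposite strand, and whether reads were counted by strand is not stated in the sources used here.

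*Ddit3*, which encodes the ER stress factor CHOP, was at 10.8, 12.2, 11.7 and 16.7 CPM in WT and 18.1, 10.2, 13.3 and 15.2 CPM in KL-/- replicates 1 to 4. The ranges lay over each other almost entirely. The log2 fold change was 0.14 (SE 0.19, 95% interval -0.27 to 0.56, FDR = 0.625), an interval that holds changes from -17.1% to 47.5%. It shares 68 bases with the more abundant *Mars* on the opposite strand (73.2 CPM in WT muscles on average), so some of its reads are of uncertain origin too.

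*Asns*, asparagine synthetase and a textbook target of ATF4, was the least abundant of the 10, at 1.27, 1.25, 0.991 and 1.08 CPM in WT and 1.71, 0.906, 0.995 and 0.716 CPM in KL-/- muscles. These levels rested on 26 to 31 counts in WT and 19 to 49 counts in KL-/- libraries. KL-/- replicate 1 was the highest of all 8 libraries and KL-/- replicates 2 and 4 were the lowest. The log2 fold change of -0.068 (SE 0.28, FDR = 0.891) turned positive, to 0.014 without KL-/- replicate 2 and to 0.091 without KL-/- replicate 4. The 95% interval ran from -38.6% to 48.3%, the widest of the 10 genes, with a coefficient of variation of 11.7% in WT and 40.1% in KL-/- muscles.

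**Figure D2:**
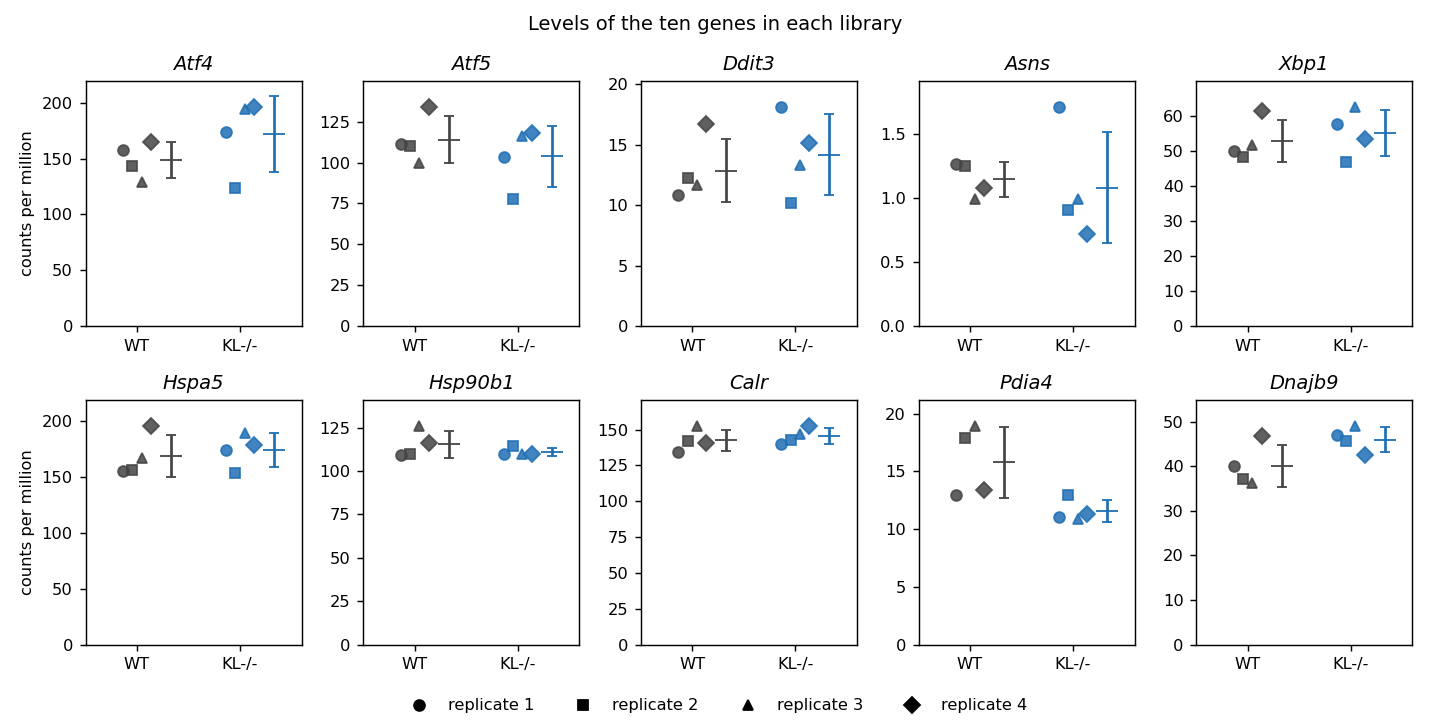
TMM-scaled CPM of each of the 10 genes in every library, WT beside KL-/-, with the mean and SD of each group of 4 and a separate linear axis from 0 for each gene. The 2 groups overlap in all 10 panels, and *Pdia4* has the widest gap between means in relation to its spread.

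*Atf4* and *Atf5* kept a tight ratio within each genotype. With counts divided by gene length, the log2 of *Atf4* over *Atf5* was 0.70, 0.59, 0.58 and 0.51 in WT muscles. In KL-/- muscles it was 0.95, 0.88, 0.95 and 0.93. Every KL-/- muscle was above every WT muscle, although neither gene alone separated the groups. Of the 45 ratios between pairs of the 10 genes, 4 separated the groups in this way, namely *Atf4* with *Atf5* and *Pdia4* with *Dnajb9*, *Calr* and *Hsp90b1*. All but the first share *Pdia4* and are not separate results. The share of such pairs among all genes was not computed, so the count has no background to be read against. The ratio of *Atf4* and *Atf5* was picked out after its values were seen. Each of the 4 reached an exact permutation p of 0.0286, the smallest that 4 against 4 can give. After Benjamini-Hochberg adjustment over the 45 this became 0.321. So few pairs at the smallest p cannot pass over 45 tests, so the adjusted value does not decide whether these ratios differ.

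*Xbp1*, the transcription factor downstream of IRE1, was at 49.8, 48.2, 51.7 and 61.4 CPM in WT and 57.6, 46.8, 62.4 and 53.3 CPM in KL-/- muscles. The groups overlapped throughout, and a log2 fold change of 0.061 (SE 0.10, 95% interval -0.17 to 0.29, FDR = 0.719) was found. It was -0.0045 without KL-/- replicate 3 and -0.058 with scaling by library totals.

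Of the abundant chaperones, *Hspa5* encodes BiP, the Hsp70 of the ER lumen that also holds the stress sensors inactive. It was at 155, 156, 167 and 196 CPM in WT and 174, 153, 189 and 179 CPM in KL-/- muscles, with a log2 fold change of 0.044 (SE 0.093, FDR = 0.773). The 95% interval ran from -10.8% to 19.2%, and the sign turned with scaling by library totals (-0.075). *Hsp90b1*, which encodes the ER Hsp90 GRP94, was at 109.4, 109.9, 126 and 116 CPM in WT and 109.8, 114, 109.7 and 109.95 CPM in KL-/- muscles. Its KL-/- libraries were the closest together of any of the 20 groups, and the log2 fold change was -0.057 (SE 0.062, FDR = 0.555). The gene overlaps a pseudogene on the opposite strand and a transcript on its own, so some of its reads are of uncertain origin. *Calr*, the calcium-binding lectin chaperone calreticulin, was at 134, 142, 153 and 141 CPM in WT and 139.7, 143, 147 and 153 CPM in KL-/- muscles. Its log2 fold change was 0.030 (SE 0.060, 95% interval -7.0% to 12.2%, FDR = 0.760), and -0.089 with scaling by library totals. For these 3 genes with an ERSE the intervals thus left room for changes no larger than 19.2% in either direction. Over all 15 counted genes with an ERSE, 0 were higher and 1 was lower in KL-/- muscles (7.23% and 6.44% of all genes), with a median log2 fold change of -0.057. The lower one was *Dnajc3*, the co-chaperone p58IPK.

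*Pdia4*, a disulfide isomerase of the ER lumen, had the largest difference of the 10. It was at 12.9, 17.9, 18.9 and 13.4 CPM in WT and 11.1, 13.0, 10.9 and 11.3 CPM in KL-/- muscles. WT replicates 2 and 3 stood well above the other 6 libraries, and KL-/- replicate 2 was just above the lowest WT library. In the edgeR fit the log2 fold change was -0.45 (SE 0.14), a change of -26.6% with a 95% interval from -40.6% to -9.4%, and the FDR of 0.0562 missed the threshold. It passed with DESeq2 (-0.44, FDR = 0.0269), with the edgeR likelihood ratio test (FDR = 0.0311) and with library totals (-0.57, FDR = 0.0230). It also passed when WT replicate 1 (FDR = 0.0422), WT replicate 4 or KL-/- replicate 2 was left out, and was at -0.42 (FDR = 0.135) without KL-/- replicate 3.

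The same WT replicates 2 and 3 held the most fibroblast RNA. The summed level of 8 fibroblast markers was 1709, 3782, 3930 and 965 CPM in WT and 1222, 1761, 536 and 791 CPM in KL-/- muscles. All 8 markers had negative log2 fold changes (median -1.24) and 3 of the 8 passed as lower. Macrophage markers summed to 64.9 to 138 CPM in WT and 47.4 to 82.4 CPM in KL-/- muscles (1 of 9 lower) and endothelial markers to 427 to 630 and 387 to 427 CPM (1 of 6 lower). Schwann cell markers summed to 30.5 to 55.9 and 61.9 to 80.2 CPM (2 of 5 higher), and muscle fibre markers to 114370 to 135427 and 138374 to 187980.0 CPM (1 of 8 higher). Adipocyte markers (3 of 5 counted) were at 6.29 to 24.3 and 4.89 to 68.4 CPM, and no marker of B and plasma cells was among the counted genes. The part of these cells in the level of *Pdia4* was not tested.

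*Dnajb9*, which encodes the BiP co-chaperone ERdj4, was at 40.0, 37.2, 36.3 and 46.8 CPM in WT and 46.9, 45.6, 49.1 and 42.4 CPM in KL-/- muscles. WT replicate 4 reached the KL-/- levels and the other 3 WT muscles were below all 4 KL-/- muscles. In the same fit the log2 fold change was 0.20 (SE 0.088), or 14.8% with a 95% interval from 0.2% to 31.5% (FDR = 0.151). Without WT replicate 4 it was 0.28 (FDR = 0.0410), and with library totals 0.081. *Pdia4* and *Dnajb9* thus differed in opposite directions, and neither passed over all genes.

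The order of the 10 genes per length was nearly the same in every muscle. *Atf4* was first in 6 of 8 libraries and *Calr* in the other 2, so that these neighbours could not be put in order, and *Hspa5* took rank 3 in 7. *Atf5*, *Hsp90b1*, *Xbp1* and *Dnajb9* took ranks 4, 5, 6 and 7 in 7 of 8 libraries each. *Ddit3*, *Pdia4* and *Asns* took ranks 8, 9 and 10 in all 8. Among libraries, KL-/- replicate 2 was the lowest of all 8 for 5 of the 10 genes (*Atf4*, *Atf5*, *Ddit3*, *Hspa5* and *Xbp1*), and WT replicate 4 was the highest WT library for the same 5 and for *Dnajb9*.

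Other genes were ranked by how near their centred log2 CPM over the 8 libraries lay to a mean profile of these genes. The measure was the root-mean-square distance, among 8222 genes. Nearest to the mean of *Atf4*, *Atf5*, *Ddit3* and *Asns* was *Taf3* at 0.046, followed by *Tgfbrap1*, *Hip1r*, *Gatad2a* and *Rai1* at up to 0.075, where the median gene was at 0.226. Nearest to the mean of the other 6 was *Cdc42bpa* at 0.030, followed by *Kdm4a*, *Ttbk2*, *Atg16l1* and *Zcchc4* at up to 0.042, where the median gene was at 0.156. The mean of these 6 was nearly flat, between -0.089 and 0.088, and averages *Pdia4* and *Dnajb9*, which differed in opposite directions. The nearest genes lie below the median gene by selection, and need not follow any single one of the genes averaged.

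Around these 10 genes the rest of both pathways was counted list by list, and each count is to be read against 7.23% of all genes higher and 6.44% lower in KL-/- muscles. Counts given with library totals are to be read against the shares under that scaling, 3.88% higher and 16.7% lower (20.6% in all). Among 9 sensors and proteases of the unfolded protein response 1 was lower, with a median log2 fold change of -0.072. It was *Creb3l1*, a membrane-bound factor related to ATF6 that is known for collagen secretion, at 8.70, 10.2, 12.4 and 5.16 CPM in WT and 3.17, 3.67, 1.91 and 2.45 CPM in KL-/- muscles. The groups did not overlap, the log2 fold change was -1.70 (SE 0.28, FDR = 0.00772), and it passed without any single library. Its WT levels, too, were highest in replicates 2 and 3, and the part of fibroblasts was not tested.

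**Figure D3:**
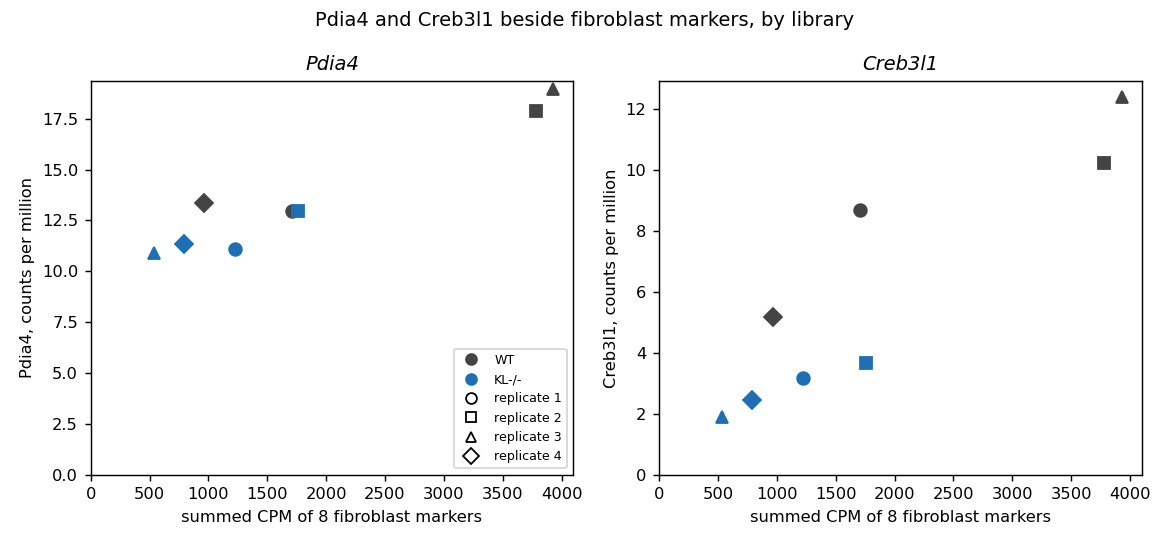
Level of *Pdia4* (left) and *Creb3l1* (right) in CPM against the summed CPM of 8 fibroblast markers, with 1 point per library, colour for genotype and shape for replicate. WT replicates 2 and 3 are highest on both axes in both panels, and no correlation was computed.

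The list of other ISR regulators and stress factors, which also holds targets of ATF4, included the clearest increases. Of 12 counted, 5 were higher and 0 lower, with a median of 0.23. *Cebpd*, a C/EBP factor, was at 8.53, 10.1, 6.79 and 5.41 CPM in WT and 17.3, 20.99, 64.9 and 55.5 CPM in KL-/- muscles, a log2 fold change of 2.37 (SE 0.43, FDR = 0.0103). *Cebpb*, its relative and a partner of ATF4 and CHOP, was at 39.7, 30.1, 25.05 and 28.2 CPM in WT and 52.6, 48.5, 84.2 and 57.0 CPM in KL-/- muscles (0.98, SE 0.19, FDR = 0.0128). *Cebpb* shares 908 bases with *Tmem189* and *Cebpd* 322 bases with *Spidr*, each on the opposite strand, so part of their reads is of uncertain origin. In both, every KL-/- muscle was above every WT muscle, and both passed without any single library. *Atf3*, a stress factor induced through ATF4 and other routes, was at 1.63 to 3.19 CPM in WT and 3.20 to 9.42 CPM in KL-/- muscles (1.38, SE 0.33, FDR = 0.0263), and no longer passed when WT replicate 1, 2 or 3 or KL-/- replicate 1 or 4 was left out (FDR up to 0.0734). *Ddit4*, an inhibitor of mTORC1 that glucocorticoids and the ISR are known to induce, was at 9.43, 9.25, 6.06 and 5.41 CPM in WT and 17.0, 16.1, 141 and 41.5 CPM in KL-/- muscles. KL-/- replicate 3, the library with another batch date, was far above the rest. The log2 fold change of *Ddit4* was 2.85 (SE 0.68, FDR = 0.0267), and 1.73 (FDR = 0.0283) without that library. It no longer passed when any 1 WT library or KL-/- replicate 4 was left out (FDR up to 0.0781), nor with limma-voom (FDR = 0.0813). The fifth, named after its values were seen, was *Stc2* (1.09, FDR = 0.0363). By contrast, *Trib3* (-0.14, FDR = 0.698), *Chac1* (0.35, FDR = 0.520) and *Sesn2* (-0.19, FDR = 0.466), known as targets of ATF4 or CHOP, did not pass. The largest decreases of the list, *Nupr1* (-0.84, FDR = 0.0599) and *Vldlr* (-0.44, FDR = 0.107), did not pass either. These genes were also named after their values were seen.

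**Figure D4:**
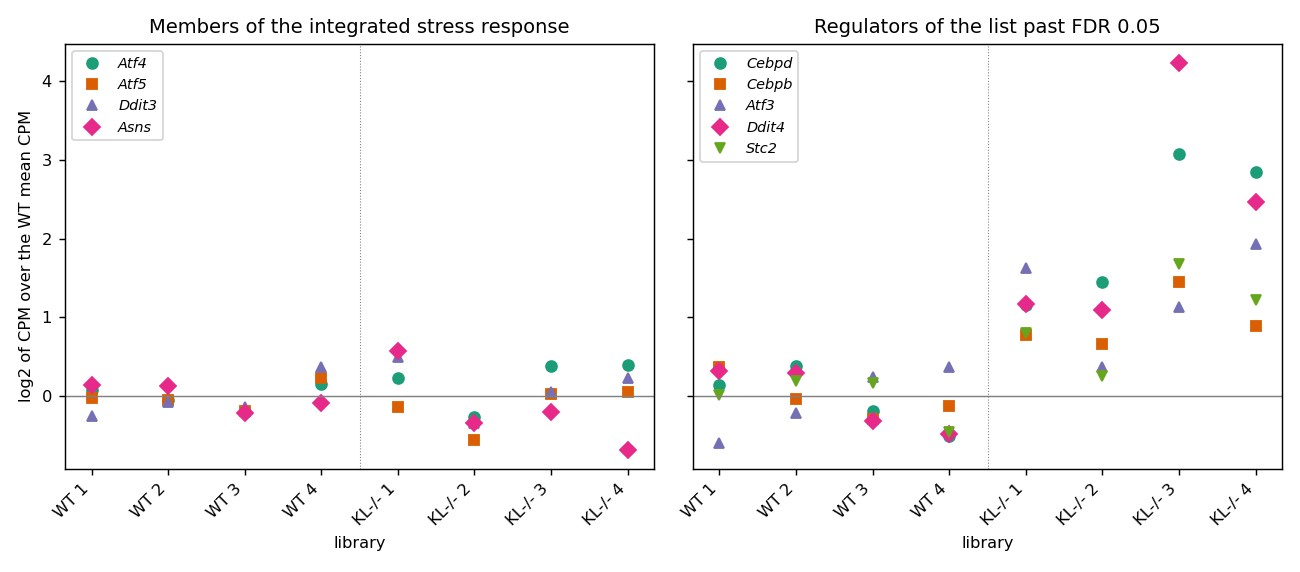
Level of each gene in each library as log2 of CPM over the mean WT CPM, on 1 shared axis. The left panel shows *Atf4*, *Atf5*, *Ddit3* and *Asns*. The right panel shows the 5 genes past the FDR among the other ISR regulators and stress factors. On the left the genotypes overlap around 0, with *Atf4*, *Atf5* and *Ddit3* all lowest in KL-/- replicate 2, and on the right all KL-/- points but those of *Atf3* and *Stc2* in replicate 2 are well above 0.

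In the translation branch, 4 of 14 genes for eIF2 subunits, kinases, phosphatases and the exchange factor eIF2B were higher and 0 lower (median 0.13). They were *Eif2s2*, the beta subunit of eIF2 (0.46, FDR = 0.0131), and the eIF2B subunits *Eif2b5* (0.28, FDR = 0.0410), *Eif2b1* (0.22, FDR = 0.0411) and *Eif2b3* (0.28, FDR = 0.0450). *Eif2s2* passed without any single library, and the eIF2B subunits each in 1 or 2 of the 8 fits without a library, among them the one without KL-/- replicate 2 (FDR otherwise up to 0.113). With library totals 1 of the 14 passed. *Eif2s2* lies within a gene on the opposite strand over its whole length. Of 18 cytosolic aminoacyl-tRNA synthetases 2 were higher, *Kars* (0.33, FDR = 0.0198) and *Eprs* (0.30, FDR = 0.0466), and the median was 0.13, but with library totals 2 were lower and 0 higher. *Kars* no longer passed without WT replicate 2 or 3 or KL-/- replicate 3 (FDR up to 0.0587), and *Eprs* passed only without KL-/- replicate 2 among these fits.

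Among 13 counted genes of amino acid synthesis 2 were higher and 0 lower (median 0.037). *Gpt2*, mitochondrial alanine transaminase, was at a mean of 338 CPM in WT and 471 CPM in KL-/- muscles (0.48, SE 0.11, FDR = 0.0236). *Mthfd1l*, of mitochondrial folate metabolism, was at 0.789 and 2.07 CPM (1.41, SE 0.34, FDR = 0.0265). *Gpt2* no longer passed without WT replicate 3 or KL-/- replicate 3 or 4 (FDR up to 0.0613), nor *Mthfd1l* without WT or KL-/- replicate 1 or 3 (FDR up to 0.0632). Lower without passing were *Aldh18a1* (-0.76, FDR = 0.0538) and *Mthfd2* (-0.51, FDR = 0.0652), both named after their values were seen. DESeq2, the likelihood ratio test and library totals each called 4 of the 13, 2 higher and 2 lower. They called 19.6%, 16.9% and 20.6% of all genes. None of 8 amino acid transporters passed, also not at an unadjusted p under 0.05, and the one of smallest p was *Slc1a5* (0.43, FDR = 0.202). DESeq2, the likelihood ratio test and limma-voom also called 0 of these 8. Without KL-/- replicate 2, where 2765 of all 12551 genes passed, 1 of the 8 passed.

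**Figure D5:**
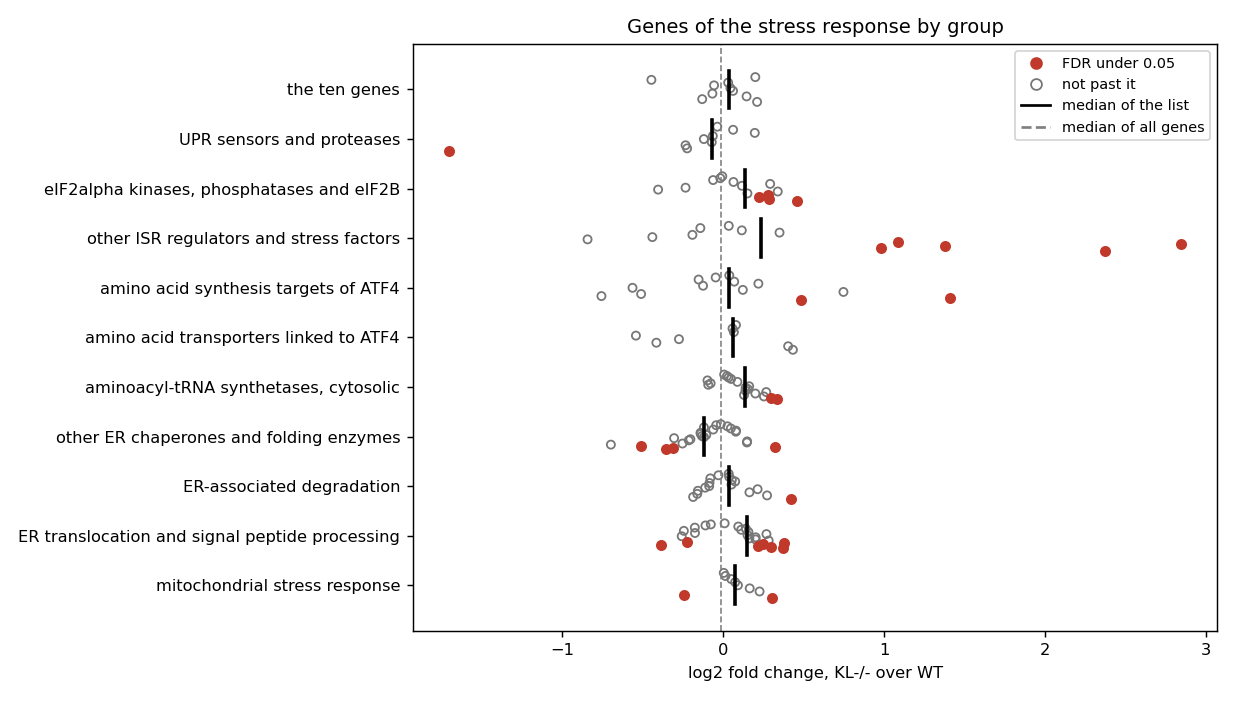
Log2 fold change of KL-/- over WT for every counted gene of the 10 lists of pathway genes and for the 10 genes followed here, with 1 point per gene, filled where the FDR was under 0.05, and a line at the median of each list. The medians lie between -0.12 and 0.23, and the widest spread is among the other ISR regulators.

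Of 24 further ER chaperones and folding enzymes 3 were lower and 1 was higher, and 17 of 24 had negative log2 fold changes (median -0.12). With library totals 6 were lower and 0 higher. *Txndc5*, a disulfide isomerase like *Pdia4*, was at a mean of 55.9 CPM in WT and 43.6 CPM in KL-/- muscles (-0.36, SE 0.055, FDR = 0.00613) and passed without any single library. *Dnajc3* was at 57.9 and 46.6 CPM (-0.31, SE 0.063, FDR = 0.0143) and likewise passed without any single library. *Selk*, an ER membrane selenoprotein, was the higher one (0.32, FDR = 0.0203), and did not pass with library totals (0.21) or without WT replicate 2 or 3 or KL-/- replicate 3. *Hspa13*, an atypical Hsp70, was lower at -0.51 (FDR = 0.0266) and passed in 1 of the 8 fits without a library, that without KL-/- replicate 2.

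Of 17 counted genes of ER-associated degradation 1 was higher, the ubiquitin-conjugating enzyme *Ube2j1* (0.42, FDR = 0.0430), and 0 were lower, whereas with library totals 4 were lower and 0 higher. Of 24 genes for protein entry into the ER 5 were higher and 2 lower (median 0.15). *Sec62* (0.37, FDR = 0.0136), *Ssr4* (0.29, FDR = 0.0177) and *Srp72* (0.22, FDR = 0.0228) were higher, and *Sec61b*, a subunit of the translocon, was lower (-0.39, FDR = 0.0297). With library totals 1 was higher and 4 lower. In the mitochondrial stress list *Clpx*, a matrix unfoldase, was higher (0.31, FDR = 0.0112) and *Oma1*, the protease that starts the DELE1 signal to HRI, was lower (-0.24, FDR = 0.0331), 2 of 9 counted. Of the genes named in these 3 lists *Sec62* and *Clpx* passed without any single library, *Ssr4* in 6 of the 8 such fits, *Srp72* in 3, *Sec61b* and *Ube2j1* in 2 and *Oma1* in 1, with an FDR of up to 0.115 otherwise. All 7 passed without KL-/- replicate 2.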

How the data were processed

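Whole TA muscles of 4 WT and 4 KL-/- mice were compared, as grouped by the labels. The labels name total RNA. The paper's methods give 100 ng of RNA as input to the libraries and speak of mRNA sequencing. Per the study's methods and processing notes, the authors checked reads with FastQC, aligned them with STAR to mm10 and counted them per gene with featureCounts. The deposited values are raw counts for 12551 genes. Annotation and strand setting are not given in the sources used here.

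Counts were scaled by TMM and tested with edgeR 4.0.16 (R 4.3.3), using the quasi-likelihood F test with genotype as the only term and Benjamini-Hochberg adjustment over all 12551 genes (FDR under 0.05). The low-count filter removed none. SE came from the F statistic and 95% intervals from its degrees of freedom. Log2 CPM used a prior count of 2. Limma 3.58.1 (voom), DESeq2 1.42.0 and other scalings, filters and left-out libraries were alternatives. Replicates were separate samples by label. The edgeR p-values set the difference between genotypes against the spread between replicates, which the fit estimates with information shared across genes. A level of 3 counts was 0.105 to 0.143 CPM.

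The 10 genes and all lists were chosen with earlier results of these data known. Pathway genes named were up to 4 of smallest p per list past the FDR, or the 1 of smallest p. Coordinates are mm10 (GRCm38).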

Additional observations from a re-analysis of the deposited data

Results flagged for a closer look

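Levels were searched for a library standing far from the other 3 of its genotype by Dixon's criterion, in 70 groups of 4 (20 of them of the 10 genes), and chance alone flags about 1 group in 20. There were 3, each in KL-/- replicate 2. *Hsp90b1* was at 114 CPM there and at 109.7 to 109.95 CPM in the other KL-/- libraries. *Eif2b1* was at 43.4 CPM, with the others at 48.8 to 49.9 CPM. *Txndc5* was at 45.9 CPM, with the others at 42.6 to 43.0 CPM.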

How the results depend on the processing

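The labels name no pairing of samples by replicate number. Deviations of same-numbered WT and KL-/- libraries correlated at -0.15, 0.18, -0.37 and 0.017. Whether animals shared a litter cannot be told from these values. A replicate block left 629 genes called (320 higher, 309 lower) and 0 of the 10 genes. Over the whole table TMM gave 1715 (907 higher, 808 lower) and library totals 2584 (487 higher, 2097 lower). Of the 10 genes, 1 passed with library totals, DESeq2 or the likelihood ratio test, each time *Pdia4* (-0.57, -0.44 and -0.45). With library totals *Hspa5* (-0.075), *Xbp1* (-0.058) and *Calr* (-0.089) turned negative. Factors by relative log expression, no filter, and a minimum of 10 counts changed no call among the 10.

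Called counts of the lists moved as follows. With library totals there were 3 unfolded protein response sensors, 1 eIF2 gene, 4 amino acid synthesis genes and 4 degradation genes. With DESeq2 there were 4 amino acid synthesis and 2 degradation genes. With the likelihood ratio test there were 2 eIF2 and 4 amino acid synthesis genes, and with limma-voom 3 other ISR regulators. Each time the 4 amino acid synthesis genes were 2 higher and 2 lower. The replicate block left 3 other ISR regulators, 1 amino acid synthesis gene, 1 chaperone and 1 entry gene, and 0 of the eIF2, synthetase, degradation and mitochondrial lists.

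Leaving out each library in turn gave 760 to 2765 genes (401 to 1522 higher, 346 to 1243 lower), with 2765 without KL-/- replicate 2 and 770 without KL-/- replicate 3. Among the 10 it gave 0 to 2. There were 2 without WT replicate 4, beside 1309 of all 12551 genes, and 2 without KL-/- replicate 2, beside 2765. Without WT replicate 1 there was 1, beside 1178 of all genes. The list counts that follow are to be read against the same 760 to 2765 genes of the whole table. List counts ranged from 1 to 5 (eIF2), 2 to 6 (other ISR), 0 to 3 (amino acid synthesis), 0 to 1 (transporters), 0 to 6 (synthetases), 2 to 5 (chaperones), 0 to 3 (degradation), 1 to 10 (entry) and 1 to 3 (mitochondrial). Log2 fold changes ranged from 0.14 to 0.35 (*Atf4*), -0.20 to -0.005 (*Atf5*), 0.015 to 0.30 (*Ddit3*), -0.38 to 0.091 (*Asns*, 0.014 without KL-/- replicate 2), 0.002 to 0.12 (*Hspa5*), -0.0045 to 0.14 (*Xbp1*), -0.082 to -0.012 (*Hsp90b1*), 0.004 to 0.065 (*Calr*), -0.53 to -0.35 (*Pdia4*) and 0.15 to 0.28 (*Dnajb9*). The cause of these changes was not tested.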
